A study of Zea mays with 6 samples.

Results

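The genes described here are those whose pathway annotation in the deposited tables places them in the maize proteasome (KEGG pathway zma03050), 56 of the 39179 genes listed. By their descriptions 20 encode subunits of the core particle, 12 of its alpha ring and 8 of its beta ring. A further 33 encode subunits of the regulatory particle, 11 ATPases and 22 non-ATPases, and 3 fall outside both, namely 2 genes for the maturation factor UMP1 and 1 for a proteasome inhibitor. The pathway annotation made no use of expression, and all 56 genes passed the filter on low counts.

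The proteasome is the protease that degrades proteins tagged with ubiquitin in the cytosol and nucleus. Its core particle is a barrel of stacked rings, in which beta subunits hold the proteolytic sites and alpha subunits form the outer gates. The regulatory particle caps the barrel. Its ring of ATPases (RPT subunits) unfolds substrates and feeds them into the core, and its non-ATPase subunits (RPN) bind ubiquitin, remove ubiquitin chains and hold the cap together.

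RNA was sequenced from endosperm, the storage tissue of the kernel, of the maize inbred B73 (wild type, 3 libraries) and of nacRNAi, a sibling line named Ni4 that carries an RNA interference construct against NAC transcription factors (3 libraries). All kernels were collected 20 days after pollination, and the series asks how the lines differ. The promoter of the construct is not given in the sources used here, and a single RNAi line was sequenced. No label states whether libraries came from different plants, so each p-value measures the spread between the sequenced samples alone, and that spread may be technical.

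Library totals ran from 55812999 to 69670876 counts, and 47.3% of 22259 tested genes differed between the lines (edgeR's quasi-likelihood test with p adjusted by Benjamini-Hochberg under 0.05, the rule behind every call below unless another is named). The targets, known from the study and not from the labels, behaved differently. NAC130 was at 1337, 1335 and 1055 CPM (read counts scaled to library size) in the wild-type libraries and at 238, 227 and 222 CPM in nacRNAi, a log2 fold change of -2.44 (adjusted p = 4.22e-06 by edgeR). NAC128 was at 309, 359 and 272 CPM against 248, 300 and 284 CPM, with overlapping lines (log2 fold change -0.18, adjusted p = 0.245 by edgeR), and its library-total value of 0.35 was called higher (adjusted p = 0.0168 by edgeR). Endosperm markers were abundant in every library, at a summed 296000 to 335000 CPM in wild-type libraries and 107000 to 121000 CPM in nacRNAi, and 18 of the 20 were lower in nacRNAi. Summed embryo and oil-body markers (41 of 108 tested, 25 lower and 3 higher, 48 at 0 in every library) were at 2360 to 2500 CPM in wild-type libraries and at 1360 to 1680 CPM in nacRNAi. Aleurone markers (3 of 4 tested, 2 lower) were at 118 to 136 and 102 to 109 CPM. Basal transfer layer markers (4 of 6 tested, none called) were at 1.39 to 14.2 and 0.642 to 11.8 CPM, and the 4 embryo surrounding region genes, 1 of them at 0 in every library, at 0.0208 to 0.226 and 0 to 1.66 CPM. The part of these tissues in the results below was not tested. In such bulk samples fewer cells of a type and less RNA per cell cannot be told apart.

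CPM values and log2 fold changes, written as nacRNAi minus wild type, were scaled with TMM factors, which set the typical gene to no change. With library totals in place of these factors the median gene was shifted by 0.52 on the log2 scale, and on log2(FPKM + 1) by 0.38. A second value is therefore given for named genes, and it is the library-total one. FPKM, fragments scaled by gene length and library size as the authors deposited them, is used for levels of different genes.

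Proteasome genes changed by small amounts and in both directions. Of the 56, 10 were higher and 24 lower in nacRNAi, or 60.7% called, against 47.3% of all tested genes (23.2% higher and 24.0% lower). None of the 56 changed 2-fold. Log2 fold changes ran from -0.76 to 0.84 with a median of -0.12, beside a median of -0.00 over all tested genes, whereas under library totals 36 members were higher and 2 lower with a median of 0.39, and on log2(FPKM + 1) 37 were higher and 2 lower with a median of 0.48. Of all genes, 59.5% were called under library totals (50.5% up and 9.0% down) and 63.7% on log2(FPKM + 1) (56.9% up and 6.88% down). The DESeq2 Wald test called 36 members, beside 49.2% of all genes. The libraries of the lines did not overlap in CPM for 42 of the 56 members, 14 of them higher and 28 lower, where 59.2% of all genes did not overlap (29.6% higher and 29.5% lower). Together the 56 genes took 0.369, 0.356 and 0.396% of all counts in wild type and 0.476, 0.472 and 0.482% in nacRNAi. The share was thus higher in every nacRNAi library, while the summed TMM-scaled CPM was lower in each, at 4467 ± 64.3 against 3986 ± 16.5 in nacRNAi (SD, n = 3 each).

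**Figure D1:**
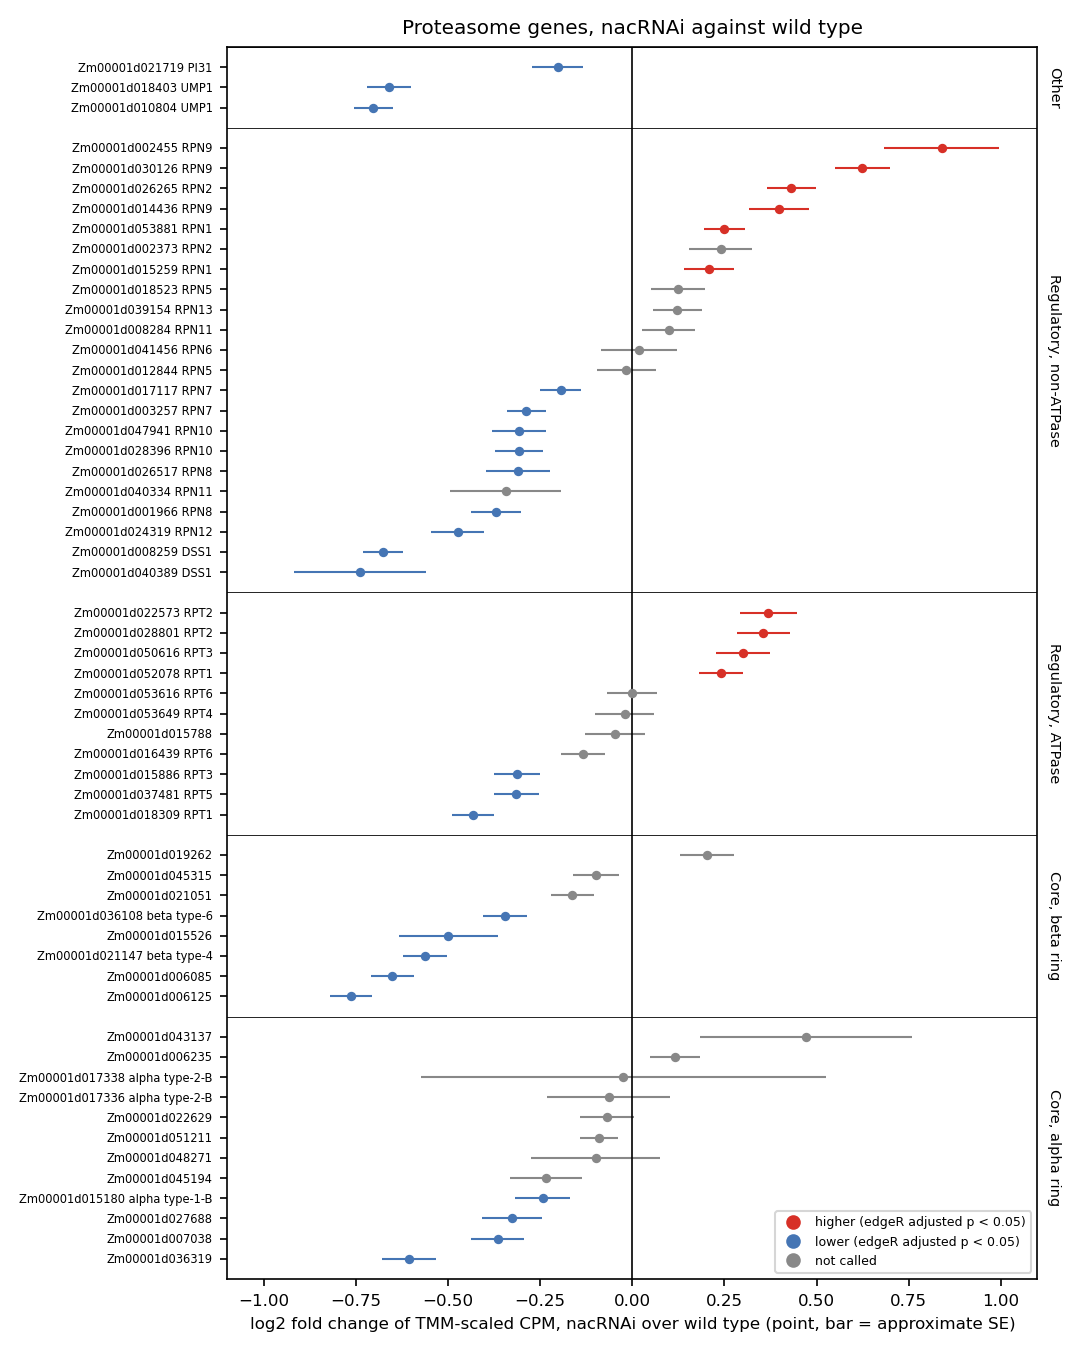
Log2 fold change (nacRNAi over wild type, TMM-scaled CPM) of each of the 56 proteasome genes, grouped by class; points are estimates, bars approximate standard errors, and colours edgeR calls at an adjusted p under 0.05. Red points occur only in the 2 regulatory classes (10 genes), and blue points in every class.

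The classes did not share 1 pattern. Core particle genes were called in 9 of 20 cases (45.0%), all lower, with a median log2 fold change of -0.20 that turned to 0.32 under library totals. With TMM 47.3% of all tested genes were called, 23.2% higher and 24.0% lower. On that scale the core differed from them in direction and not in the share called. Under library totals 9 core genes were higher and 1 lower (45.0% and 5.0%, beside 50.5% and 9.0% of all genes). On log2(FPKM + 1) 12 were higher and none lower (60.0% higher, beside 56.9% and 6.88%), with a median of 0.43 beside 0.38. Regulatory particle genes were called higher in 10 and lower in 12 of 33 cases (30.3% and 36.4%), with a median of -0.02 that turned to 0.50 under library totals. The 3 other members were all lower, with a median of -0.66 (library totals -0.15, 1 higher and 1 lower). Core genes had a median relative transcript length of 2108 bases and regulatory genes of 3259 bases, beside 2350 bases for all tested genes, as computed from the ratio of counts to FPKM. With the trend of log2 CPM on length removed from each library, the order of the medians turned, to -0.08 for the core and -0.15 for the regulatory particle. In that setting 8 members were higher and 22 lower, where 44.0% of all genes were called, 20.5% higher and 23.5% lower.

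**Figure D2:**
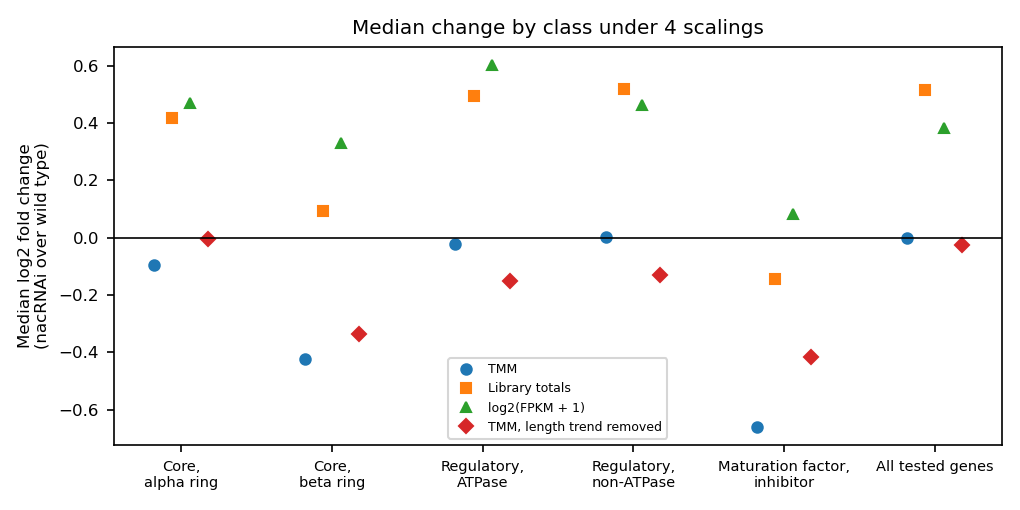
Median log2 fold change (nacRNAi over wild type) of each class of proteasome genes and of all tested genes under 4 scalings, marked by symbol. Beta ring and maturation genes lie below all tested genes under each scaling, while the classes' signs depend on the scaling.

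Alpha ring subunits form the gate of the core. Of 12 genes 4 were lower and none higher, beside 24.0% of all genes lower, and the median was -0.10 (library totals 0.42, 6 higher and none lower). Mean FPKM of these genes ran from 3.62 to 59.9 in wild type. The most abundant by FPKM over both lines and the one with the largest fall was Zm00001d036319 (chromosome 6, 84001793 to 84002545, build not named in the files), described only as an alpha type subunit. It was at 50.1, 58.0 and 52.3 CPM in wild-type libraries and at 34.5, 34.5 and 36.3 CPM in nacRNAi. All nacRNAi libraries lay below all wild-type ones, with a log2 fold change of -0.61 (SE 0.07, adjusted p = 0.000379 by edgeR) and one of -0.09 under library totals. The alpha gene Zm00001d007038 (chromosome 2) was at 71.3, 73.3 and 78.3 CPM against 60.5, 59.2 and 53.3 CPM, again without overlap (log2 fold change -0.37, adjusted p = 0.00407 by edgeR, library totals 0.15). Zm00001d027688 (chromosome 1) was at 40.8, 41.3 and 37.4 CPM against 33.1, 33.5 and 28.7 CPM (log2 fold change -0.33, adjusted p = 0.0131 by edgeR, library totals 0.19). The fourth, alpha type-1-B (Zm00001d015180), had a log2 fold change of -0.24 (adjusted p = 0.0279 by edgeR), and its call was lost without wild-type replicate 3, nacRNAi replicate 2 or nacRNAi replicate 3. Its log2 fold change with the length trend removed was -0.00.

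The other 8 alpha genes had log2 fold changes between -0.23 and 0.47 and were not called. The highest of these, Zm00001d043137, varied within each line, from 13.01 to 24.7 CPM in wild-type libraries and from 19.4 to 32.1 CPM in nacRNAi, and the lines overlapped. Alpha type-2-B was annotated at neighbouring loci of chromosome 5. Of these, Zm00001d017338 was at 7.10, 7.37 and 24.2 CPM in wild-type libraries and at 11.7, 9.76 and 16.6 CPM in nacRNAi. Wild-type replicate 3 stood apart there, by more than the difference between the lines. Genes with 1 description may share reads if their sequences are alike, which was not tested, and how the authors counted shared reads is not given in the sources used here.

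Beta ring subunits include the proteolytic sites. Of 8 genes 5 were lower and none higher, beside 24.0% of all genes lower. The median was -0.42, the lowest of the core and regulatory classes. Under library totals it was 0.09 with 3 higher and 1 lower (37.5% and 12.5%, beside 50.5% and 9.0% of all genes). The lines did not overlap at any of the 8 genes, 7 being lower and 1 higher in nacRNAi, where 59.2% of all genes did not overlap. Zm00001d006125 (chromosome 2, 199259912 to 199262530) was at 94.6, 95.3 and 101 CPM in wild-type libraries and at 55.98, 57.5 and 58.0 CPM in nacRNAi. This was the largest fall of all 56 genes, with a log2 fold change of -0.76 (SE 0.06, adjusted p = 4.24e-05 by edgeR). It was also the only core gene lower under library totals, at -0.25 (adjusted p = 0.0203 by edgeR), although on log2(FPKM + 1) its difference of -0.04 was not called (adjusted p = 0.699 by limma).

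The beta gene Zm00001d006085, which lies near it on chromosome 2 (197748870 to 197753145), was at 104, 104 and 103 CPM against 65.8, 69.1 and 63.1 CPM. The log2 fold change was -0.65 (SE 0.06, adjusted p = 9.01e-05 by edgeR, library totals -0.14). Beta type-4 (Zm00001d021147, chromosome 7) was at 211, 202 and 222 CPM against 140, 148 and 142 CPM (log2 fold change -0.56, adjusted p = 0.000221 by edgeR, library totals -0.05). Beta type-6 (Zm00001d036108) fell by 0.35 on the log2 scale (adjusted p = 0.00208 by edgeR), but was at 0.17 under library totals. Zm00001d015526, the least abundant of the beta genes at 10.2 ± 0.943 CPM in wild type, had a log2 fold change of -0.50 (adjusted p = 0.0165 by edgeR), a call lost without wild-type replicate 1, nacRNAi replicate 1 or nacRNAi replicate 3. The beta gene with the highest mean FPKM over both lines was Zm00001d045315, at 176, 175 and 194 CPM in wild-type libraries and 170, 165 and 174 CPM in nacRNAi. Its lines did not overlap, but the difference was small and not called (log2 fold change -0.10, adjusted p = 0.225 by edgeR).

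**Figure D3:**
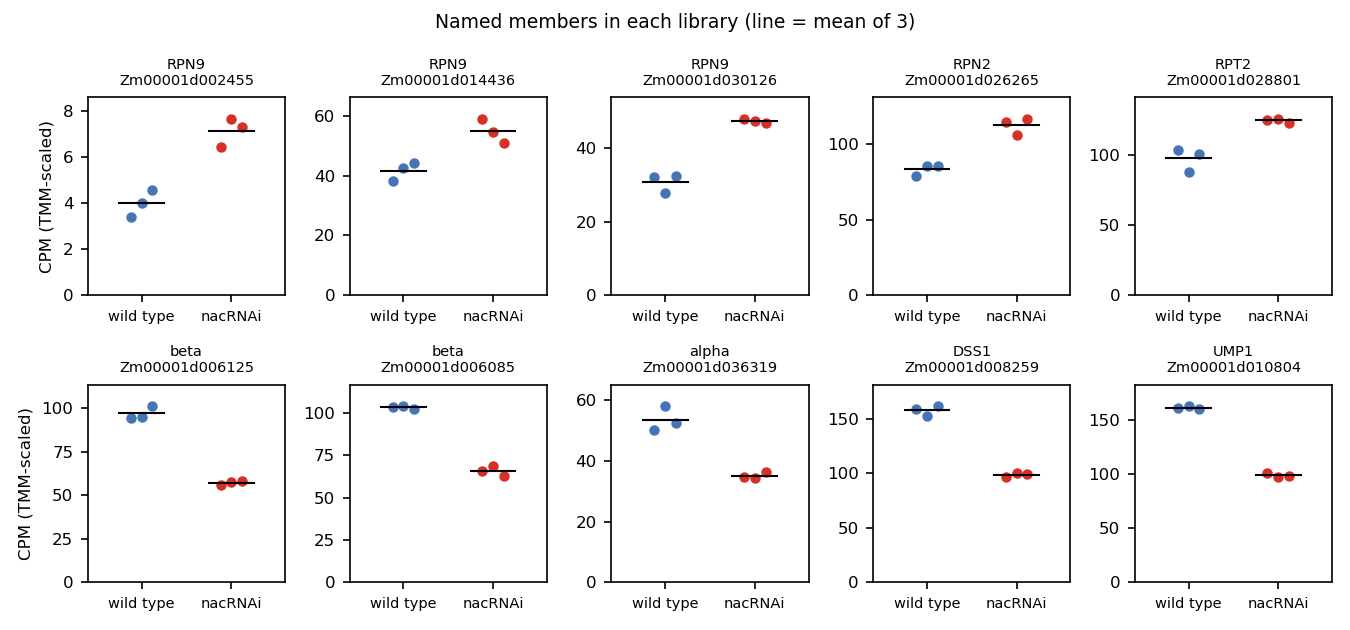
TMM-scaled CPM of 10 proteasome genes in each library, 3 wild-type (blue) and 3 nacRNAi (red), with a line at each mean. All nacRNAi libraries lie above wild type in the upper row and below it in the lower row; library totals take the lower-row changes to between -0.25 and -0.09 on the log2 scale.

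The regulatory ATPases form the unfolding ring. Of 11 genes 4 were higher and 3 lower, beside 23.2% and 24.0% of all genes, and the median was -0.02. Under library totals it was 0.49 with 10 higher and none lower (90.9% higher, beside 50.5% and 9.0% of all genes). Both RPT2 genes with the pathway annotation rose. Zm00001d028801 (chromosome 1, 46819355 to 46823093) was at 104, 88.5 and 101 CPM in wild-type libraries and at 126, 126 and 124 CPM in nacRNAi, with no overlap. The log2 fold change was 0.36 (SE 0.07, adjusted p = 0.00467 by edgeR, library totals 0.87). Zm00001d022573 (chromosome 7) was at 29.0, 29.4 and 32.5 CPM against 40.1, 40.7 and 36.5 CPM (log2 fold change 0.37, adjusted p = 0.00543 by edgeR, library totals 0.88). The single RPT5 gene with the annotation, Zm00001d037481 (chromosome 6), was at 94.6, 95.5 and 101 CPM against 77.3, 81.7 and 74.8 CPM. It was lower in every nacRNAi library (log2 fold change -0.31, adjusted p = 0.00383 by edgeR), but at 0.20 under library totals.

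RPT1 and RPT3 each had 1 gene called higher and 1 called lower. The RPT1 gene described as the MSS1 homolog, Zm00001d018309 (chromosome 5, 218238432 to 218242413), was at 116, 116 and 122 CPM in wild-type libraries and 86.3, 85.0 and 90.8 CPM in nacRNAi. Its lines did not overlap (log2 fold change -0.43, SE 0.06, adjusted p = 0.000578 by edgeR, library totals 0.08). The other RPT1 gene, Zm00001d052078 (chromosome 4, 178759836 to 178764070), was at 133, 136 and 144 CPM against 166, 157 and 164 CPM. It was higher in every nacRNAi library (log2 fold change 0.24, SE 0.06, adjusted p = 0.0114 by edgeR, library totals 0.76), with a value of 0.07 that was not called once the length trend was removed (adjusted p = 0.354 by edgeR). For RPT3, Zm00001d015886 (chromosome 5) was at 70.8, 72.5 and 74.5 CPM against 62.1, 57.2 and 56.04 CPM (log2 fold change -0.31, adjusted p = 0.00457 by edgeR, library totals 0.20). Zm00001d050616 (chromosome 4) was at 91.5, 78.7 and 87.3 CPM against 108, 100.3 and 109 CPM (log2 fold change 0.30, adjusted p = 0.0110 by edgeR, library totals 0.82). Thus 1 gene of each pair lay below, and the other above, every library of the opposite line on the TMM scale. RPT4, both RPT6 genes and Zm00001d015788, called proteasome component4 in the files and placed with the ATPases by its GO terms, had values between -0.13 and -0.00 and were not called.

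A factor common to a whole library does not alter how a subunit's transcripts are divided among its genes. The MSS1 homolog held 45.3, 44.3 and 43.9% of RPT1 FPKM in wild type and 31.7, 33.4 and 33.8% in nacRNAi. The lines did not overlap, and the same division in counts went from 46.2% ± 0.410 to 35.0% ± 0.727 (SD, n = 3 each). For RPT3, Zm00001d015886 held 43.1% ± 2.53 of FPKM in wild type and 34.5% ± 0.894 in nacRNAi, and in counts 45.9% ± 2.16 and 35.6% ± 1.36. At RPT2 the largest share belonged to a further gene without the pathway annotation, Zm00001d007215, and it was 60.3% ± 1.52 of FPKM in wild type and 52.5% ± 1.129 in nacRNAi (59.5% ± 1.57 and 51.0% ± 1.095 of counts). At RPT5 Zm00001d037481 held 60.9% ± 0.959 and 50.9% ± 2.33 of FPKM (57.6% ± 0.868 and 50.7% ± 1.71 of counts), the rest lying almost wholly with Zm00001d018409, which also lacks the annotation. The libraries of the lines did not overlap in any of these shares. Over all 20 subunits with 2 or more described genes, 9 held a gene whose FPKM share did not overlap, the others being RPN6, RPN7, RPN8, RPN9 and UMP1. In counts RPN6 and RPN9 kept such a gene, but the shares of RPN7, RPN8 and UMP1 overlapped. At RPN8 the direction turned too. Zm00001d001966 held a mean of 75.38% of FPKM in wild type and 77.25% in nacRNAi, but 79.61% and 78.97% of counts. At UMP1 Zm00001d010804 held a mean of 58.21% and 57.49% of counts. How often shares fail to overlap in other groups of related genes was not tested. For a single share an exact permutation test of 3 against 3 libraries cannot go below p = 0.1. The shares of the RPN1 and RPT6 genes did overlap, with Zm00001d015259 at 59.2% ± 1.82 and 58.7% ± 0.961 of RPN1 and Zm00001d016439 at 58.6% ± 1.17 and 56.04% ± 2.76 of RPT6.

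**Figure D4:**
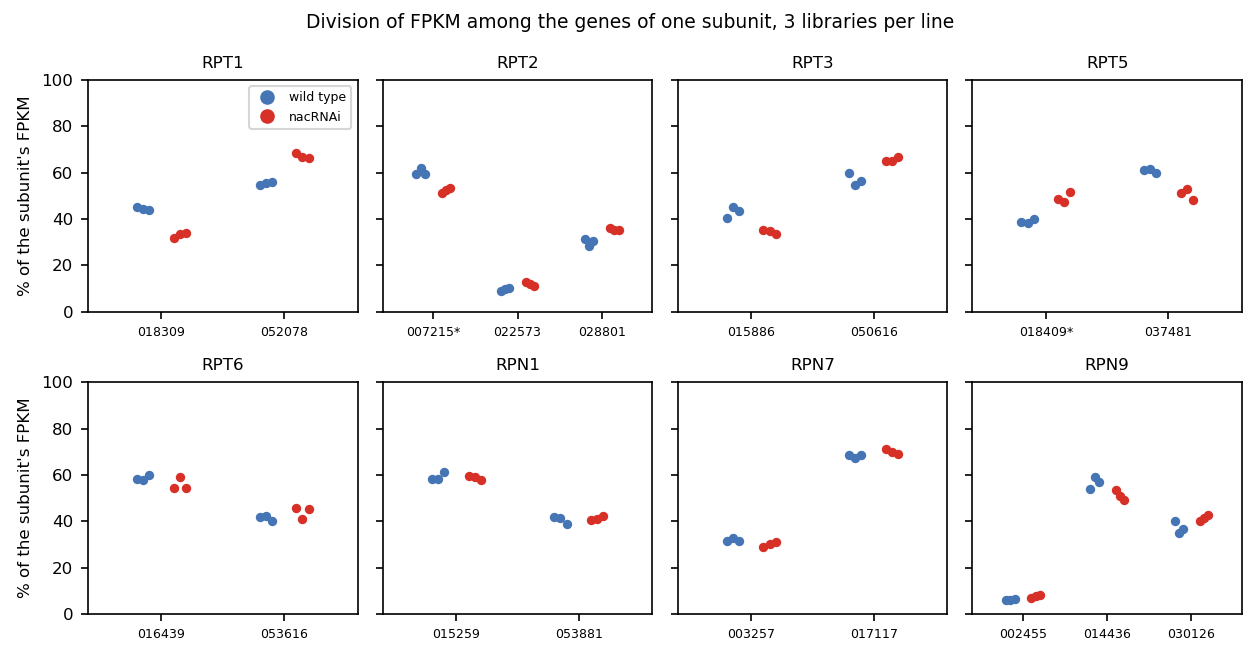
Percent of a subunit's summed FPKM held by each of its genes in every library, wild type in blue and nacRNAi in red, for 8 subunits; genes are labelled by the closing digits of their identifiers, and an asterisk marks a gene without the pathway annotation. Genes with a mean wild-type share of 1% or less are not drawn. Every gene shown for RPT1, RPT2, RPT3, RPT5 and RPN7, and 2 of the 3 for RPN9, has shares without overlap, while shares overlap at RPN1 and RPT6.

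Non-ATPase subunits make up the scaffold of the base and the lid. Of 22 genes 6 were higher and 9 lower, beside 23.2% and 24.0% of all genes, and the median was 0.00. Under library totals it was 0.52 with 16 higher and none lower (72.7% higher, beside 50.5% and 9.0% of all genes). All 3 genes for RPN9, a structural subunit of the lid, rose. Zm00001d030126 (chromosome 1, 107682051 to 107686329) was at 32.0, 27.9 and 32.3 CPM in wild-type libraries and 47.99, 47.2 and 46.8 CPM in nacRNAi. The log2 fold change was 0.62 (SE 0.07, adjusted p = 0.000369 by edgeR, library totals 1.14), and the lines were well apart. Zm00001d014436 (chromosome 5) was at 38.2, 42.5 and 44.4 CPM against 59.1, 54.6 and 51.0 CPM (log2 fold change 0.40, adjusted p = 0.00524 by edgeR, library totals 0.91). Zm00001d002455 (chromosome 2, 13189111 to 13192192) was the least abundant, at 3.37, 3.997 and 4.56 CPM against 6.42, 7.66 and 7.28 CPM. It had the largest rise of the 56 genes (log2 fold change 0.84, SE 0.16, adjusted p = 0.00314 by edgeR, library totals 1.35), and its model overlaps another gene model, so the reads of the overlap cannot be assigned with certainty.

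RPN1 and RPN2 are the large scaffold subunits of the base. The RPN2 gene Zm00001d026265 (chromosome 10, 142361347 to 142368169) was at 78.8, 85.5 and 85.3 CPM in wild-type libraries and 114, 106 and 117 CPM in nacRNAi. It rose without overlap between the lines (log2 fold change 0.43, SE 0.07, adjusted p = 0.00117 by edgeR, library totals 0.95). The second RPN2 gene, Zm00001d002373, was at 36.3, 42.4 and 42.4 CPM against 50.5, 44.0 and 48.5 CPM, a log2 difference of 0.24, which missed the threshold (adjusted p = 0.0521 by edgeR) and was -0.00 with the length trend removed. The RPN1 genes Zm00001d053881 and Zm00001d015259 were called higher, with log2 fold changes of 0.25 (adjusted p = 0.00684 by edgeR) and 0.21 (adjusted p = 0.0361 by edgeR). With the length trend removed they were at -0.05 and -0.09 and were not called. The call of Zm00001d015259 also needed all libraries except wild-type replicate 3, since it was lost when any one of the others was left out.

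DSS1, a small lid subunit, had the largest falls among the regulatory genes. Zm00001d008259 (chromosome 8) was at 159, 153 and 162 CPM in wild-type libraries and 96.8, 100.2 and 98.8 CPM in nacRNAi (log2 fold change -0.68, SE 0.05, adjusted p = 5.82e-05 by edgeR). Zm00001d040389 (chromosome 3) was at 24.4, 27.0 and 22.6 CPM against 10.8, 16.0 and 17.5 CPM (log2 fold change -0.74, SE 0.18, adjusted p = 0.0127 by edgeR). The lines did not overlap at either gene, yet under library totals their values of -0.16 and -0.22 were not called (adjusted p = 0.0836 and 0.311 by edgeR). RPN12, a lid subunit, was at 48.4, 50.5 and 55.1 CPM against 37.7, 35.3 and 37.9 CPM at Zm00001d024319 (log2 fold change -0.47, adjusted p = 0.00110 by edgeR, library totals 0.04). Both genes of RPN10, a ubiquitin receptor, fell by 0.31 on the log2 scale (adjusted p = 0.00557 and 0.00963 by edgeR). Under library totals both were at 0.21 and were called higher (adjusted p = 0.0324 and 0.0355 by edgeR). The RPN10 gene Zm00001d047941 had the highest CPM of the 56, at 311, 287 and 265 CPM in wild-type libraries and 240.1, 232 and 225 CPM in nacRNAi.

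Both RPN7 genes and both RPN8 genes were also lower, with log2 fold changes of -0.29 and -0.19 for RPN7 and -0.37 and -0.31 for RPN8. All 4 were above 0 under library totals (0.14 to 0.32). Both RPN7 genes were called higher there (adjusted p = 0.0174 and 0.00316 by edgeR), and neither RPN8 gene was called. The TMM call of the RPN7 gene Zm00001d017117 was lost without wild-type replicate 1, nacRNAi replicate 2 or nacRNAi replicate 3. That of the RPN8 gene Zm00001d026517 was lost without wild-type replicate 2, wild-type replicate 3, nacRNAi replicate 2 or nacRNAi replicate 3. RPN11, the deubiquitinase of the lid, had 1 gene at 110, 119 and 83.5 CPM against 71.1, 84.2 and 91.3 CPM (Zm00001d040334, log2 fold change -0.34, adjusted p = 0.102 by edgeR). Its other gene, Zm00001d008284, was at 39.7, 36.7 and 39.0 CPM against 43.2, 42.1 and 38.2 CPM (log2 fold change 0.10, adjusted p = 0.294 by edgeR). The lines overlapped at both. RPN5 (Zm00001d012844 at 86.3, 86.5 and 102 against 91.0, 94.3 and 86.5 CPM, and Zm00001d018523 at 88.1, 85.7 and 74.6 against 90.1, 91.7 and 88.9 CPM), RPN6 and the ubiquitin receptor RPN13 were not called either, with log2 fold changes from -0.02 to 0.12.

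UMP1 is a chaperone that helps assemble the core particle and is degraded in the finished protease. Its genes were at 161, 163 and 160.2 CPM in wild-type libraries and 102, 97.4 and 98.7 CPM in nacRNAi (Zm00001d010804, chromosome 8) and at 116, 113 and 119 CPM against 73.8, 76.3 and 70.1 CPM (Zm00001d018403, chromosome 5). Both fell without overlap, by 0.70 and 0.66 on the log2 scale (SE 0.05 and 0.06, adjusted p = 4.15e-05 and 9.52e-05 by edgeR), and their library-total values were -0.19 and -0.15. Only Zm00001d010804 was called there (adjusted p = 0.0338 by edgeR). On log2(FPKM + 1) neither was called, at -0.04 and 0.08, and the summed FPKM of both genes was 180.0 ± 9.81 against 182 ± 4.10 in nacRNAi (SD, n = 3 each). The gene described as a probable proteasome inhibitor, Zm00001d021719, was at 39.0, 43.5 and 42.4 CPM against 37.3, 36.6 and 34.6 CPM. The log2 fold change of -0.20 was called (adjusted p = 0.0428 by edgeR, library totals 0.31), and the call was lost with any library other than wild-type replicate 1 left out, and also once the length trend was removed.

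Of 15 subunits with 2 or more annotated genes, 3 had every gene called higher, namely RPN1, RPN9 and RPT2, and RPN2 had 1 of its 2 genes higher. At DSS1, RPN7, RPN8, RPN10 and UMP1 every gene was called lower with TMM. Under library totals both annotated genes of RPN7 and of RPN10 were called higher instead. With TMM calls were opposite at RPT1 and RPT3, and no gene was called at RPN5, RPN11, RPT6 and alpha type-2-B. Members called in the same direction with TMM, with library totals, on log2(FPKM + 1) and with the length trend removed numbered 7 higher (12.5% of 56, beside 17.8% of all genes) and 0 lower (beside 6.02%). The 7 were the 3 RPN9 genes, both RPT2 genes, the RPN2 gene Zm00001d026265 and the RPT3 gene Zm00001d050616.

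Within a library, the balance of the annotated classes can be compared free of library scaling. The mean log2 CPM of core genes minus that of regulatory genes was -0.57, -0.50 and -0.42 for wild type, against -0.70, -0.64 and -0.71 in the nacRNAi ones, with no overlap. For the beta ring alone the same difference was 0.30, 0.29 and 0.29 for wild type, against -0.05, 0.00 and -0.10 in the nacRNAi ones, again without overlap. Alpha minus regulatory differences overlapped, at -1.15, -1.02 and -0.90 for wild type, against -1.13, -1.08 and -1.11 in nacRNAi. As a ratio of summed FPKM, core over regulatory particle was 0.779, 0.802 and 0.858 for wild type, against 0.757, 0.767 and 0.749 in nacRNAi, also without overlap. The smallest exact two-sided permutation p for these differences is 0.1. With the length trend removed the medians of core and regulatory genes changed order, as given above. The beta median of -0.34 stayed below the regulatory one of -0.15. All these balances hold annotated genes alone. On log2(FPKM + 1) 10 of the 15 tested core genes described without the annotation were higher and none lower. Of 14 such regulatory genes 9 were higher and 1 lower, beside 56.9% and 6.88% of all genes. The alpha gene Zm00001d022316, without the annotation, was at a mean of 42.0 FPKM in wild type and 95.9 in nacRNAi. Whether the lines overlap in balance with such genes added was not tested.

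Levels per length differed widely among the subunits of the cap. Summing the FPKM of all genes described for a subunit, including those without the pathway annotation, RPN10 was highest in wild type at 126 ± 19.2 and RPN13 lowest at 14.4 ± 1.31 (SD, n = 3). Between these lay DSS1 at 95.4 ± 7.61, RPT2 at 78.6 ± 4.34 and RPN7 at 74.4 ± 1.99 on the upper side. On the lower side were RPT4 at 16.7 ± 1.88, RPN1 at 18.9 ± 1.15 and RPN9 at 22.8 ± 1.27. The libraries of RPT4 and RPN1 overlapped, and every wild-type library had RPN9 above both. Zm00001d015788 (proteasome component4), at 18.3 FPKM in wild type and 27.8 in nacRNAi, entered no sum because its description names no subunit. The sum of the ATPase it encodes is therefore too low. In nacRNAi RPN10 (165 ± 22.0) and RPN13 (24.5 ± 0.750) remained at the ends. The rank of RPN10 rested on Zm00001d040834, which lacks the annotation and held 33.6% ± 9.77 of the sum in wild type and 33.0% ± 10.8 in nacRNAi. The 2 annotated RPN10 genes were at 65.2 and 17.0 FPKM in wild type, together below DSS1. They were at 85.9 and 22.9 FPKM in nacRNAi, together below RPT2 at 137 ± 4.39. In wild-type replicate 3 the full RPN10 sum was level with DSS1, at 103.8 and 103.6 FPKM. The ratio of the lines was largest at RPN9, 2.12, with 22.2, 21.9 and 24.2 FPKM in wild type and 50.4, 46.4 and 47.99 FPKM in nacRNAi. It was below 1 only at RPN8 (0.794, from 40.3, 38.7 and 38.3 to 30.9, 31.6 and 30.6 FPKM) and RPN3 (0.955, with overlapping lines). The low RPN8 ratio is uncertain, since FPKM and counts of both RPN8 genes diverge, as given below. In counts scaled by library totals their log2 fold changes were 0.14 and 0.21. Ratios above 1 stand beside an upward shift of the typical gene in FPKM. On log2(FPKM + 1) 56.9% of all tested genes were called higher and 6.88% lower, with a median of 0.38. With TMM, 10 of the 33 annotated regulatory genes were higher and 12 lower.

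**Figure D5:**
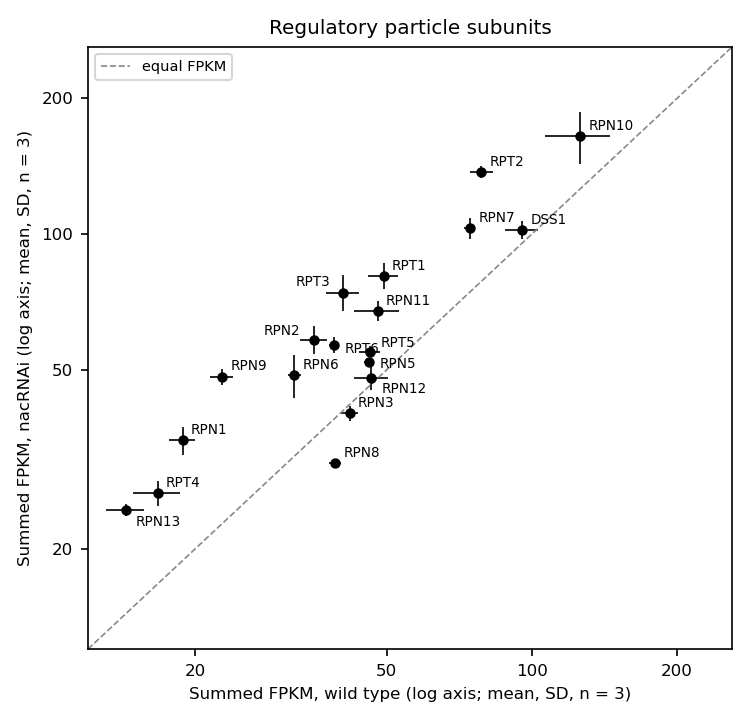
Summed FPKM of each of 19 regulatory particle subunits in wild type (x axis) and nacRNAi (y axis), both logarithmic, as mean and SD of 3 libraries, with a dashed line of equal FPKM. RPN3 and RPN8 lie below the line and the other subunits above it. The place of RPN8 is uncertain, since FPKM and counts of its genes diverge. The typical gene is shifted upward in FPKM as well, with a median of 0.38 on log2(FPKM + 1) over all tested genes.

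Counts and FPKM differed for some members. The log2 ratio of line means was 0.66 higher in FPKM than in TMM-scaled CPM at the median member, and 46 of the 56 members lay within 0.2 of this offset. Of the 10 beyond, the RPN8 genes Zm00001d026517 and Zm00001d001966 lay at -0.79 and -0.58 from it, and the RPN5 genes Zm00001d018523 and Zm00001d012844 at -0.56 and -0.52. The alpha gene Zm00001d043137 lay at -0.70, the RPN2 gene Zm00001d026265 at -0.41 and the RPT5 gene Zm00001d037481 at -0.36. At the RPN8 gene Zm00001d001966, for example, CPM was 69.7, 63.2 and 72.5 against 52.0, 54.2 and 52.7, and the limma difference on log2(FPKM + 1) of -0.29 was lower still than its library-total change of 0.14. The step that separates the files for these genes is not stated by header or label, so their FPKM levels and FPKM shares are less certain than the others. Across the 56 members the log2 fold change correlated with relative transcript length (Pearson r = 0.44, Spearman rho = 0.464) and inversely with mean FPKM over all libraries (r = -0.445, rho = -0.41). These are descriptions over genes that share libraries, and the first was 0.0618 (r) after removal of the length trend. By position, 14 of the 56 genes (25%) lay on chromosome 5, which holds 11.4% of all listed genes.

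A further 42 genes are described as proteasome components but lack the pathway annotation, and 33 of them were tested. Of these 2 were higher and 9 lower (6.06% and 27.3%, beside 23.2% and 24.0% of all genes), with a median of -0.18. With library totals 16 rose and 1 fell (48.5% and 3.03%, beside 50.5% and 9.0%), with a median of 0.34. An alpha type gene, Zm00001d022316, was at 106, 118 and 130.2 CPM in wild-type libraries and 193, 199 and 197 CPM in nacRNAi (log2 fold change 0.74, adjusted p = 0.000227 by edgeR, library totals 1.25). It differed in direction from every called core gene with the annotation. The RPN3 gene Zm00001d032010, of the lid, was at 67.0, 68.8 and 63.0 CPM against 34.8, 35.0 and 34.0 CPM (log2 fold change -0.94, adjusted p = 2.12e-05 by edgeR), and it was lower under library totals too, at -0.42. The second RPN12 gene, Zm00001d039483, fell as its annotated partner did (log2 fold change -0.56, adjusted p = 0.00335 by edgeR, library totals -0.04). These genes were picked for naming after their values were seen.

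Upstream of the proteasome, ubiquitin is activated by E1 enzymes, passed on by E2 conjugating enzymes, and removed again by deubiquitinases. The list of 220 pathway genes by description also holds the 42 genes described as proteasome components above (33 tested, 2 higher and 9 lower). Of the 220, 180 were tested, and 37 were higher and 54 lower (20.6% and 30.0%, beside 23.2% and 24.0% of all genes). With the length trend removed 23 of 179 were higher and 56 lower (12.8% and 31.3%, beside 20.5% and 23.5% of all genes). The E2 genes are not given apart in that setting. Of 56 E2 genes tested 30 were lower and 1 higher (53.6% and 1.79%), with a median of -0.46. With library totals 16 rose and 8 fell (28.6% and 14.3%, beside 50.5% and 9.0% of all genes), with a median of 0.06. Among them Zm00001d037052, described as E2 11, was at 627, 799 and 746 CPM in wild-type libraries and 67.7, 72.6 and 106 CPM in nacRNAi. This 8.83-fold fall (log2 fold change -3.14, SE 0.20, adjusted p = 6.63e-05 by edgeR, library totals -2.62) was far larger than any change of a proteasome gene. Zm00001d014108 (E2 4) was at 185, 176 and 163 CPM against 79.3, 88.2 and 78.4 CPM (log2 fold change -1.09, adjusted p = 2.91e-05 by edgeR, library totals -0.57). Zm00001d043070, another E2 11 gene, was at 206, 212 and 198 CPM against 103, 105 and 90.6 CPM (log2 fold change -1.04, adjusted p = 3.30e-05 by edgeR, library totals -0.52).

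Of 61 deubiquitinase genes tested 25 were higher and 8 lower (41.0% and 13.1%, beside 23.2% and 24.0% of all genes), with a median of 0.22. With library totals 48 rose and 1 fell (78.7% and 1.64%, beside 50.5% and 9.0%). With the length trend removed 15 were higher and 9 lower, or 24.6% and 14.8%, near the 20.5% of all genes higher and below the 23.5% lower. Zm00001d049806, a ubiquitin carboxyl-terminal hydrolase, was at 3.00, 3.58 and 4.21 CPM in wild-type libraries and 8.91, 9.83 and 9.62 CPM in nacRNAi. Its lines did not overlap (log2 fold change 1.39, adjusted p = 0.000231 by edgeR, library totals 1.91). Zm00001d002391, described as of the C19 protease family, was at 21.9, 22.5 and 18.8 CPM against 38.9, 38.1 and 37.0 CPM (log2 fold change 0.85, adjusted p = 0.000151 by edgeR, library totals 1.37). Zm00001d031587, ubiquitin carboxyl-terminal hydrolase 2, was at 12.8, 15.2 and 12.8 CPM against 21.7, 24.9 and 25.7 CPM (log2 fold change 0.82, adjusted p = 0.000551 by edgeR, library totals 1.34).

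Among the other steps, 2 of 6 E1 genes were higher and 2 lower, and 5 were higher under library totals. Of all genes 23.2% were higher and 24.0% lower, and under library totals 50.5% and 9.0%, which holds for each count here. RAD23 and DSK2, shuttle receptors that carry ubiquitylated proteins to the cap, had 2 of 9 genes lower (22.2%) and none higher, both lower ones being DSK2b genes, with 7 higher (77.8%) under library totals. The CDC48 segregase, which extracts substrates, and its cofactors UFD1 and NPL4 had 7 of 15 tested genes higher (46.7%) and 3 lower (20.0%, median 0.31, library totals 13 higher, or 86.7%, and none lower). No description matched polyubiquitin. Related complexes are built on subunits like those of the lid. COP9 signalosome genes had 4 of 14 tested lower (28.6%) and none higher, with 8 higher (57.1%) under library totals. Genes of eIF3, a translation initiation factor, had 8 of 25 tested higher (32.0%) and 9 lower (36.0%), with 18 higher (72.0%) and 1 lower under library totals. The difference between these complexes was not tested.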

How the data were processed

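The authors deposited 2 tables, one of raw read counts and one of FPKM, with 6 columns of libraries next to each gene's position, description and pathways, per the file headers. No header or label names the aligner, the counter, the genome build or the use of strand. Per the labels' protocols, total RNA was extracted with TRIzol and the library kit was Truseq mRNA. Lines and replicate numbers came from the sample titles. Members were all genes with zma03050 in the pathway column, divided by description except for Zm00001d015788, placed as given above. The members and lists were chosen with earlier results of these data known.

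Counts were filtered with filterByExpr, scaled by TMM (factors 0.806 to 0.872 in wild type and 1.18 to 1.21 in nacRNAi) and tested with the robust quasi-likelihood test of edgeR 4.0.16 in R 4.3.3, with line as the only term and Benjamini-Hochberg adjustment over 22259 genes (threshold 0.05). SEs are approximate (log2 fold change over the square root of F). FPKM was tested with limma 3.58.1 on log2(FPKM + 1) and log2(FPKM + 0.1). DESeq2 1.42.0, other scalings and filters, removal of a loess length trend (span 0.3) and leaving out each library were alternatives. Relative length is the median over libraries of CPM to FPKM in kilobases, written in bases. The fit was tested on simulated data. Python 3.11.15, numpy 2.4.6, pandas 2.3.3 and matplotlib 3.10.9 were used for summaries.

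Genes named with values were, per class, the 3 called members with the largest rise and the 3 with the largest fall, the one with the highest mean FPKM, all genes of a subunit where calls or directions differed, and the 3 largest rises and falls of the pathway lists at 5 CPM or more. Others were named after their values were seen. Replicates of a line differed by more than sampling noise in every pair (chi-square per degree of freedom 25.8 to 49.9).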

Additional observations from a re-analysis of the deposited data

How the results depend on the processing

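Against 34 proteasome genes changed (9 core, 22 regulatory) and 91 of the ubiquitin and shuttle pathway, an adjusted p under 0.01 left 24, 6, 16 and 62, and a 2-fold minimum 0, 0, 0 and 9. The shares of all genes at these 2 thresholds are not given here. Leaving out each library gave 28 to 34, 7 to 10, 19 to 22 and 75 to 89. In those fits 17.9 to 20.9% of all tested genes were higher and 19.6 to 21.5% lower, beside 23.2% and 24.0% with every library. Fewer calls were thus made over all genes too. The proteasome median of -0.12 became 0.39 under library totals, 0.48 on log2(FPKM + 1), with or without a filter, and 0.49 on log2(FPKM + 0.1), and lay between -0.17 and -0.11 with a library left out. The core median of -0.20 became 0.32, 0.43 and 0.45 likewise, -0.079 with the length trend removed, and -0.29 to -0.16 with a library left out. The regulatory median of -0.02 became 0.50, 0.58 and 0.61, -0.0014 with no filter, -0.026 with the 1 CPM filter, -0.15 with the length trend removed, and -0.059 to 0.047 with a library left out. Of the 34 called members, 8 were called in the opposite direction under library totals. In that setting 30 members changed sign, 16 of them called lower with TMM. Among all genes named by rule, those that did were Zm00001d018309 0.082, Zm00001d037481 0.20, Zm00001d015886 0.20, Zm00001d007038 0.15, Zm00001d027688 0.19, Zm00001d045315 0.41, Zm00001d024319 0.04, Zm00001d021719 0.31, Zm00001d040334 0.18, Zm00001d012844 0.50 and NAC128 (Zm00001d040189) 0.35. On log2(FPKM + 1), filtered or not, and then on log2(FPKM + 0.1), those that turned were Zm00001d018309 0.27 and 0.28, Zm00001d015886 0.52 and 0.55, Zm00001d036319 0.040 and 0.041, Zm00001d007038 0.42 and 0.44, Zm00001d027688 0.50 and 0.53, Zm00001d006085 0.10 in both, Zm00001d021147 0.12 in both, Zm00001d045315 0.64 and 0.65, Zm00001d040389 0.0044 and 0.0021, Zm00001d008259 0.11 in both, Zm00001d024319 0.17 and 0.18, Zm00001d018403 0.084 and 0.0845, Zm00001d021719 0.56 and 0.59, Zm00001d040334 0.42 and 0.43, Zm00001d012844 0.13 in both and Zm00001d040189 0.54 and 0.55. With the length trend removed Zm00001d002373 was at -0.00 and Zm00001d018523 at -0.028. Zm00001d012844, at -0.059 without wild-type replicate 2, was at 0.073 without wild-type replicate 3 and at 0.02 without nacRNAi replicate 3. The cause of these turns was not tested. Libraries with the same replicate number did not deviate together (correlations 0.011, -0.049 and -0.103), so the numbers do not pair them. With the replicate number as a block 31 members were called (9 core, 20 regulatory), 30 of them shared with the 34 and the other being Zm00001d043137, higher at 0.49 (adjusted p = 0.00757 by edgeR), beside 84 pathway genes. Of all tested genes 20.4% were higher and 21.3% lower with this block. The least abundant member in wild type, Zm00001d002455, rested on 181 to 548 counts a library.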

Other observations

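Some genes described as proteasome subunits without the pathway annotation varied widely between libraries of the same line. The RPN10 gene Zm00001d040834 (chromosome 3) was at 118, 114 and 40.3 CPM in wild type, against 35.3, 75.8 and 96.3 CPM for nacRNAi, and the lines overlapped (adjusted p = 0.593 by edgeR). The RPN11 gene Zm00001d013752 (chromosome 5) was at 2.29, 0.0833 and 6.62 CPM against 7.34, 4.60 and 0.112 CPM (adjusted p = 0.848 by edgeR). These genes were picked after their values were seen, and the source of the variation was not tested.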
